A study of Mus musculus with 8 samples.

Results

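Oxidative phosphorylation is carried out in the inner mitochondrial membrane by complexes I to IV, which pass electrons from NADH and succinate to oxygen, with protons pumped by complexes I, III and IV, and by complex V, the ATP synthase, which uses the proton gradient to make ATP. Most subunits are encoded in the nucleus and imported, while a small set is encoded by mitochondrial DNA. Thyroid hormone is a known driver of respiration and acts through nuclear receptors, of which TRα1 is encoded by Thra. The nuclear-encoded subunit genes were taken by symbol, as those starting with Nduf followed by a, b, c, s or v and a number, the Sdha to Sdhd genes, and those starting with Uqcr, Cox4 to Cox8 or Atp5, leaving out symbols marked as pseudogenes or predicted genes. This gave 88 of 52325 genes, of which 38 were placed in complex I, 4 in complex II, 8 in complex III, 21 in complex IV and 17 in complex V. The symbol rule kept 4 genes annotated as processed pseudogenes, which are Ndufa11b, Ndufb4c and Ndufs6b in complex I and Cox6c2 in complex IV. Ndufa4 and its paralog Ndufa4l2 were counted with complex IV, where the Ndufa4 protein is now placed. Of the 88 genes, 82 had enough counts to be tested. The other 6 were Cox7b2, Cox8c and Ndufa11b, at 0 counts in every library, Ndufs6b, with 1 count in 1 WT library, Cox6c2, with 1 count in 1 library of each genotype, and Cox8b, with 113 counts in WT library 1 and at most 11 elsewhere.

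RNA was sequenced from laser-captured endometrium of 4 Thra1PV/+ and 4 wild-type (WT) mice in metestrus, labelled as uterus. Thra1PV/+ mice carry 1 PV allele of Thra in the germline, which encodes a TRα1 with a frameshifted C-terminus that acts as a dominant negative, beside 1 intact allele. The ages and strain background of these 8 mice are not given in the sources used here. Thra itself does not check the labels, since both alleles are counted together, and it was at 45.8 to 127 CPM (counts scaled to library size by TMM) in Thra1PV/+ and 47.4 to 110 CPM in WT endometrium.

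The libraries held 48791602 to 59818887 counts, of which the 88 genes took 0.926% to 1.199%. Defining markers of endometrium were present in every library. The simple epithelium markers summed to 1930 to 4700 CPM in Thra1PV/+ and 1870 to 5040 CPM in WT libraries, and the stroma markers to 300 to 2960 CPM and 1110 to 3690 CPM. Markers of other cell types moved with genotype or with a library. All 7 squamous epithelium markers were called higher in Thra1PV/+ endometrium, with a summed level of 2390 to 3870 CPM against 1.70 to 36.1 CPM. The 7 smooth muscle markers summed to 145 to 675 CPM in Thra1PV/+ libraries and 568 to 12900 CPM in WT libraries, with WT library 1 at the top, and all 7 were lower in Thra1PV/+ endometrium at an unadjusted p under 0.05 by edgeR, with 0 called. WT library 1 also had 577 CPM of skeletal or cardiac muscle markers, against at most 32.4 CPM elsewhere. Of these 8 markers, Myh4 and Myh1 were at 0 in every library, and Ckm, Myh6, Actc1 and Mb were under 1 CPM. The 577 CPM was thus almost all from Acta1 and Tnnt3. The 6 leucocyte markers all had log2 fold changes above 0, with a median of 1.11 and 3 at an unadjusted p under 0.05, and summed to 258 to 674 CPM in Thra1PV/+ and 168 to 332 CPM in WT libraries. All 7 stroma markers were below 0, with a median of -1.72 and 1 at an unadjusted p under 0.05. Thra1PV/+ library 1 had the highest summed stroma level of its genotype, 2960 CPM against 300 to 858 CPM in the others. In bulk tissue, a different share of cells of a type and a different amount of RNA per cell cannot be told apart. The part of the squamous epithelium markers in the results was not tested, since they separate the genotypes in full. The results are therefore given with and without Thra1PV/+ library 1 and WT library 1.

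The nuclear-encoded subunit genes were, as a group, at slightly lower levels in Thra1PV/+ than in WT endometrium, while 1 paralog, Ndufa4l2, was several times higher. A log2 fold change (Thra1PV/+ minus WT) below 0 was found for 77 of 82 genes (93.9%), against 56.8% of all 18174 tested genes. Their median log2 fold change was -0.23, a level 14.8% lower, beside -0.05 for all tested genes. Against genes of similar transcript length the contrast was smaller for the shorter genes. For 26 subunit genes of 371 to 704 bases the median was -0.27, beside -0.14 for all tested genes in that range. For 26 of 709 to 1142 bases it was -0.20 beside -0.13, and for 26 of 1231 to 4715 bases -0.20 beside -0.05. The shares below 0 were not matched for length. The differences were small for single genes. A gene was called where edgeR's quasi-likelihood test gave at least a fold of 2 together with an adjusted p of at most 0.1 (Benjamini-Hochberg over all tested genes). By this rule Ndufa4l2 was the 1 gene called higher, where 0.924% of all tested genes were, and 0 were called lower, where 0.066% of all tested genes were. At an unadjusted p under 0.05, 14 genes were lower (17.1%, against 4.72% of all tested genes) and 1 was higher (against 5.05%). By DESeq2, 16 genes were lower at that threshold (19.5%, against 5.76% of all tested genes). The same gene, Ndufa4l2, was the 1 subunit gene called by DESeq2, which called 702 of all 18174 tested genes in either direction. With DESeq2 and no fold threshold, 6 genes had an adjusted p of at most 0.1, where 5.12% of all tested genes did, and these were Ndufa4l2 and, lower, Ndufa1, Ndufa13, Ndufs4, Ndufv3 and Cox6a1. The values of the 2 genotypes did not overlap for 12 genes that were lower in all Thra1PV/+ libraries, where 2.49% of all tested genes were, and for 1 that was higher, where 3.55% were.

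**Figure D1:**
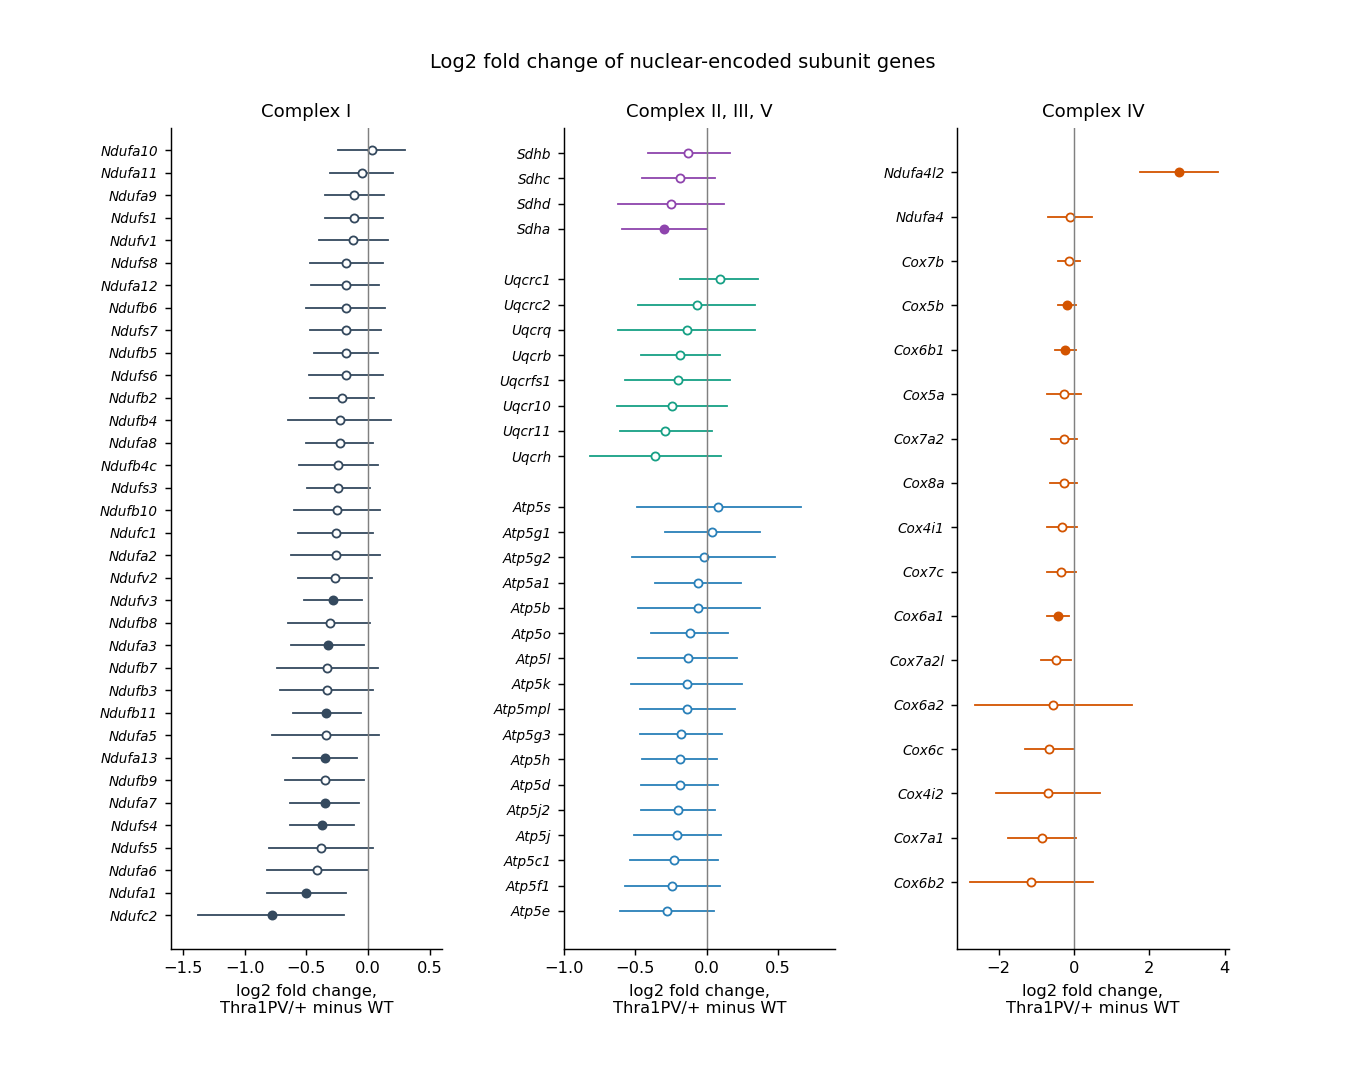
Log2 fold change (Thra1PV/+ minus WT) of 81 of the 82 tested genes, by complex, with horizontal lines for the 95% confidence interval of edgeR's quasi-likelihood fit, filled points for genes whose 4 Thra1PV/+ and 4 WT values did not overlap, and a wider axis for complex IV. Nearly all points lie left of 0, most intervals include 0, and Ndufa4l2 stands alone at 2.79.

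The count of lower genes depended on which library was left out. Without Thra1PV/+ library 1, 3 genes were lower at an unadjusted p under 0.05 (3.66%, against 6.29% of all genes tested), and without WT library 1, 7 were (8.54%, against 3.53%). Without both, 3 were (3.66%, against 5.17%). The direction was kept without Thra1PV/+ library 1, WT library 1 or both, with 72 of 82 genes below 0 each time (87.8%, against 49.6% to 53.0% of all genes), but the median log2 fold change shrank to -0.14, -0.14 and -0.11. Without both libraries, 17 genes had no overlap in the lower direction, where 9.66% of all tested genes had none with 3 libraries a genotype. Leaving out Thra1PV/+ library 2 gave 5 genes at an unadjusted p under 0.05 (6.10%, against 2.56% of all genes tested), Thra1PV/+ library 3 gave 9 (11%, against 2.44%) and WT library 2 gave 6 (7.32%, against 3.61%). Thra1PV/+ library 4 left out gave 14 (17.1%, against 3.47%) and WT library 4 gave 12 (14.6%, against 5.28%). The count rose to 19 without WT library 3 (23.2%, against 5.38%). With normalization by library size alone there were 2 (2.44%, against 2.87%).

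The summed CPM of a complex adds all its tested genes in a library. Complex I summed to 2383, 2356, 2625 and 2708 CPM in Thra1PV/+ libraries 1 to 4 and to 3296, 3129, 2813 and 2940 CPM in WT libraries 1 to 4. Complex IV summed to 2083, 2408, 2658 and 2585 CPM against 3339, 2823, 2963 and 2908 CPM. In both complexes every Thra1PV/+ library was below every WT library, with WT library 1 highest. The means were 2518 ± 175 (SD, n = 4) against 3044 ± 212 CPM for complex I, a ratio of 0.827, and 2433 ± 256 against 3008 ± 228 CPM for complex IV, a ratio of 0.809. Without Ndufa4l2 the complex IV ratio was 0.792.

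Complex II summed to 520, 523, 560 and 541 CPM in Thra1PV/+ and 576, 625, 702 and 621 CPM in WT libraries, again without overlap, and its ratio was 0.850. Complex III summed to 843, 1005, 1101 and 1027 CPM against 1220, 1023, 1146 and 1144 CPM. Complex V summed to 3016, 3202, 3516 and 3244 CPM against 3306, 3442, 3739 and 3751 CPM. For complexes III and V the genotypes overlapped, with ratios of 0.877 and 0.911. Without Thra1PV/+ library 1 and WT library 1, the ratios of complexes I to V were 0.866, 0.834, 0.945, 0.880 and 0.911, and the overlaps were as before. These sums carry no p-value, because the genes were chosen with results of these data known, and the order of the 5 ratios was not tested.

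**Figure D2:**
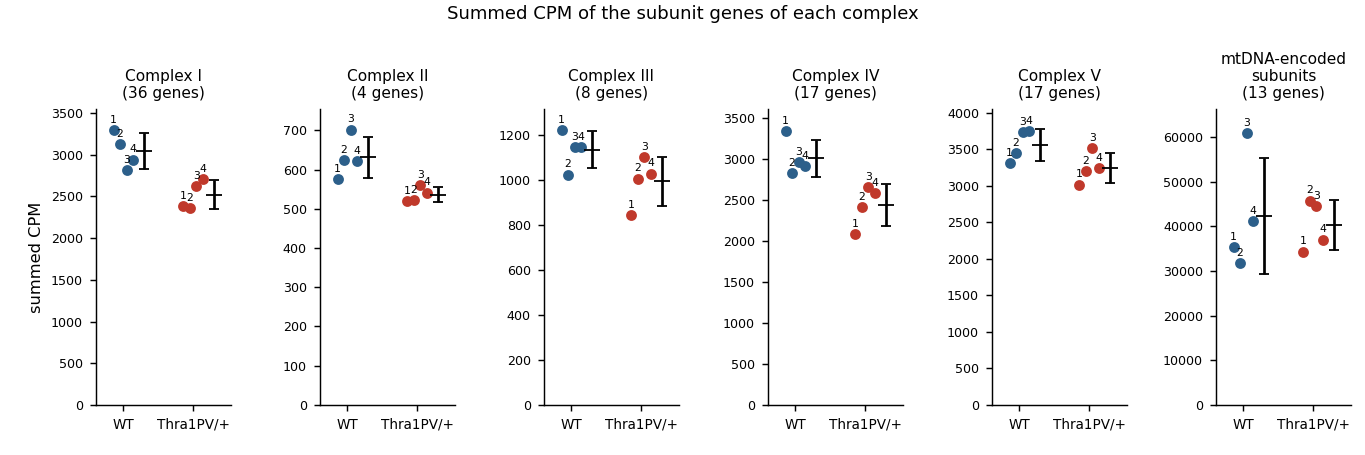
Summed CPM of the tested genes of each complex and of the mtDNA-encoded subunits in each library (points, numbered by library; blue for WT, red for Thra1PV/+), with the mean and SD of 4 libraries in black and each axis starting at 0. The Thra1PV/+ points lie below all WT points for complexes I, II and IV and overlap them for complexes III, V and the mtDNA-encoded subunits.

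The 13 subunits encoded by mitochondrial DNA did not separate the genotypes. They summed to 34309 to 45746 CPM in Thra1PV/+ and 31790 to 60871 CPM in WT libraries, with WT library 3 highest. In edgeR's test, 0 of 13 had an unadjusted p under 0.05, against 4.72% lower and 5.05% higher of all tested genes. Their median log2 fold change was -0.08, beside -0.23 for the nuclear-encoded genes. Whether the 2 genomes' subunits differed in response was not tested.

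**Figure D3:**
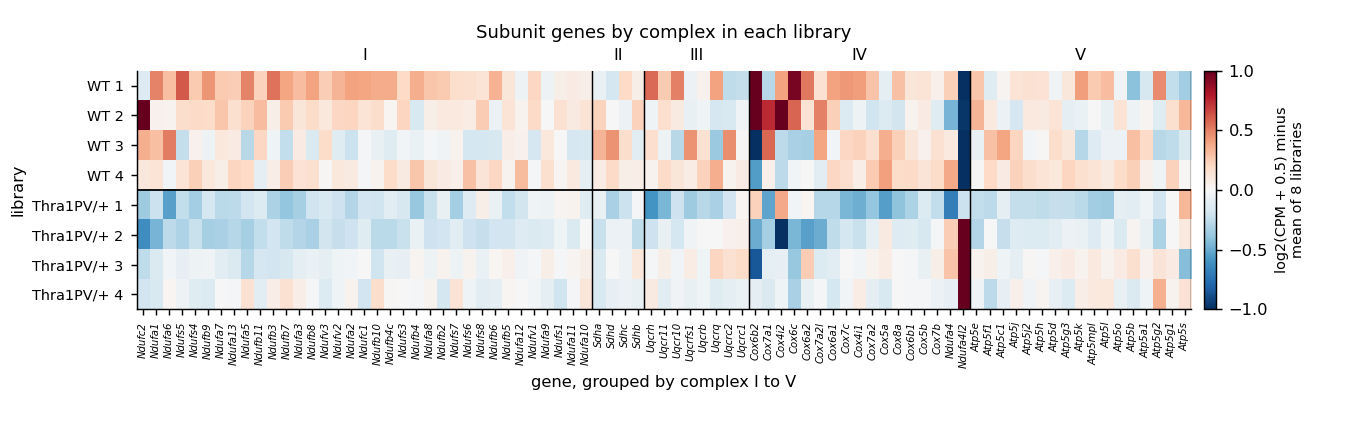
Log2(CPM + 0.5) of 81 of the 82 genes in each library minus its mean over the 8 libraries, with genes ordered by log2 fold change within complexes I to V and colours capped at 1 in either direction. WT library 1 is mostly red and Thra1PV/+ libraries 1 and 2 mostly blue, the other libraries lie between, and Ndufa4l2 and the low-level paralogs of complex IV stand apart from their complex.

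Complex I, the NADH dehydrogenase, has a catalytic core and a larger set of accessory subunits. Of its 36 tested genes, 35 had a log2 fold change below 0, with a median of -0.26. At an unadjusted p under 0.05 by edgeR, 10 were lower (27.8%, against 4.72% of all tested genes). In the lower direction 8 did not overlap (22.2%, against 2.49% of all tested genes). All 10 genes at that p threshold were accessory subunits. The 28 accessory genes had a median of -0.30 and the 7 core genes one of -0.18. Of the 7 core genes, 0 had an unadjusted p under 0.05 by edgeR, against 4.72% lower and 5.05% higher of all tested genes.

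Ndufc2, an accessory subunit of the membrane arm, had the lowest log2 fold change of the complex. It was at 71.5, 59.3, 76.9 and 80.1 CPM in Thra1PV/+ libraries and 83.7, 194, 118 and 99.2 CPM in WT libraries. The genotypes did not overlap, but WT library 2 was far above the other WT libraries. Its log2 fold change was -0.78 (SE 0.26, unadjusted p = 0.0162 and adjusted p = 0.362 by edgeR). Ndufa1, a small accessory subunit of the membrane arm encoded on the X chromosome, was at 42.0, 35.2, 44.2 and 43.9 CPM against 69.3, 50.4, 60.2 and 53.9 CPM. All 4 Thra1PV/+ libraries were below all WT libraries, with a log2 fold change of -0.50 (SE 0.14, adjusted p = 0.270 by edgeR).

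The core subunits were closer to equal. Ndufs1, which holds iron-sulfur clusters of the electron path, was at 55.4, 52.7, 53.6 and 47.2 CPM in Thra1PV/+ and 56.4, 60.3, 54.1 and 55.2 CPM in WT libraries. Ndufv1, which binds NADH, was at 78.1, 72.2, 79.2 and 78.3 CPM against 92.5, 91.5, 71.1 and 79.1 CPM. The genotypes overlapped for both genes. Their log2 fold changes were -0.11 (95% interval -0.35 to 0.12) and -0.12 (-0.40 to 0.16). At the upper end of the complex stood the accessory subunits Ndufa10, with 101 ± 7.21 CPM against 99.2 ± 9.11 CPM (SD, n = 4 each), and Ndufa11, with 62.4 ± 3.55 CPM against 64.7 ± 5.56 CPM. Both overlapped, with log2 fold changes of 0.03 and -0.05. Ndufb4c, annotated as a processed pseudogene, was at 29.2 to 45.8 CPM over all libraries and may share reads with Ndufb4, so both values are uncertain.

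Complex II, succinate dehydrogenase, is the 1 respiratory complex with no subunit encoded by mitochondrial DNA. All 4 genes had log2 fold changes below 0. Sdha, the flavoprotein that oxidises succinate, was at 203, 182, 192 and 191 CPM in Thra1PV/+ and 203, 248, 269 and 223 CPM in WT libraries. The highest Thra1PV/+ and the lowest WT library, both number 1, were equal at this precision, and the log2 fold change was -0.30 (SE 0.13, unadjusted p = 0.0476, adjusted p = 0.506 by edgeR). Sdhb, the iron-sulfur subunit, was at 82.1, 69.7, 89.5 and 79.0 CPM against 87.0, 97.9, 77.3 and 87.3 CPM. The membrane anchors Sdhc and Sdhd were at 115 to 129 CPM against 128 to 153 CPM and at 120 to 151 CPM against 133 to 205 CPM. The genotypes overlapped for these 3 genes, whose log2 fold changes were -0.13 for Sdhb, -0.19 for Sdhc and -0.25 for Sdhd.

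Complex III, the cytochrome bc1 complex, passes electrons from ubiquinol to cytochrome c. Of its 8 genes, 7 had a log2 fold change below 0, with a median of -0.20. By edgeR, 0 had an unadjusted p under 0.05, against 4.72% lower and 5.05% higher of all tested genes. The smallest adjusted p by edgeR was 0.583. Uqcrh, the hinge protein, was at 179, 235, 269 and 290 CPM in Thra1PV/+ and 402, 264, 306 and 279 CPM in WT libraries. Uqcr11, a small subunit, was at 77.3, 101, 111 and 99.2 CPM against 128, 120, 103 and 122 CPM. Thra1PV/+ library 1 was lowest and WT library 1 highest for both genes, and the genotypes overlapped. Their log2 fold changes were -0.36 (95% interval -0.82 to 0.10) and -0.29 (-0.61 to 0.04).

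The large core proteins of complex III stood at the other end. Uqcrc1 was at 153, 156, 171 and 144 CPM in Thra1PV/+ and 128, 147, 152 and 160 CPM in WT libraries, with a log2 fold change of 0.09 (-0.19 to 0.36). Uqcrc2 was at 139 ± 14.6 CPM against 145 ± 34.4 CPM (SD, n = 4 each), and Uqcrfs1, the Rieske iron-sulfur protein, at 86.6 ± 10.6 CPM against 99.8 ± 17.8 CPM. All 3 overlapped. Their median log2 fold change was -0.07, with Uqcrfs1 at -0.20, beside -0.24 for the 5 small subunits. Of the small subunits, Uqcrb was at -0.19 and Uqcrq at -0.14, both above Uqcrfs1.

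Complex IV, cytochrome c oxidase, reduces oxygen to water, and several of its nuclear-encoded subunits have paralogs used in particular tissues or conditions. Ndufa4l2, the paralog of Ndufa4 known to be induced in hypoxia, was at 17.8, 81.8, 85.6 and 50.1 CPM in Thra1PV/+ and 7.04, 10.3, 7.80 and 8.87 CPM in WT libraries. Every Thra1PV/+ library was above every WT library, and Thra1PV/+ library 1 was well below the other 3. The log2 fold change was 2.79 (SE 0.46, 95% interval 1.74 to 3.83, adjusted p = 0.0389 by edgeR), a fold of 6.91. The gene (ENSMUSG00000040280) lies on chromosome 10, at 127514967 to 127517154 of GRCm38 on the plus strand. The call depended on the libraries used. Without Thra1PV/+ library 2 or 3 its adjusted p by edgeR was 0.110 or 0.126, and without WT library 1, 3 or 4 it was 0.109, 0.119 or 0.136, with log2 fold changes of 2.55 to 2.81, all short of the adjusted threshold. Without Thra1PV/+ library 1 the log2 fold change was 3.14 (adjusted p = 0.00441), and without that library and WT library 1 it was 3.04 (adjusted p = 0.0106).

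Ndufa4 itself was at 133, 255, 262 and 203 CPM in Thra1PV/+ and 254, 156, 231 and 280 CPM in WT libraries, with a log2 fold change of -0.11 (-0.70 to 0.48). The genotypes overlapped. On the deposited TPM values, which account for transcript length, Ndufa4l2 made up 5.30%, 13.7%, 13.6% and 10.8% of the pair in Thra1PV/+ and 1.51%, 2.65%, 1.83% and 1.54% in WT libraries. Ndufa4 was thus the more abundant transcript in every library. Beside Ndufa4l2, the squamous epithelium markers summed to 2390, 3340, 3870 and 2770 CPM in Thra1PV/+ libraries 1 to 4, and the simple epithelium markers to 1930, 3830, 4700 and 3440 CPM, with library 1 lowest in each. In WT libraries 1 to 4 the squamous markers summed to 1.70, 25.1, 36.1 and 15.3 CPM. The simple epithelium markers summed to 1870, 2440, 4940 and 5040 CPM there, highest in WT libraries 3 and 4, where Ndufa4l2 was low. Pericyte markers, another cell type in which the gene is known to be expressed, summed to 183 to 472 CPM in Thra1PV/+ and 228 to 606 CPM in WT libraries, with 1 of 7 called higher and a median log2 fold change of -0.46. The part of these cell types in the Ndufa4l2 result was not tested.

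**Figure D4:**
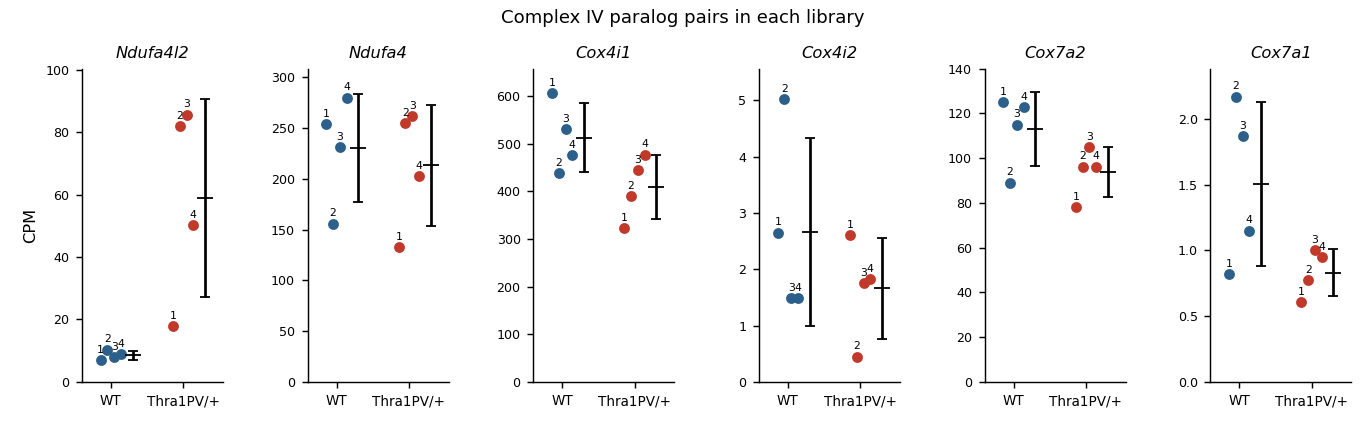
CPM of 3 pairs of complex IV paralogs in each library (points, numbered by library; blue for WT, red for Thra1PV/+), with the mean and SD of 4 libraries in black and each axis starting at 0 on its own scale. The genotypes separate for Ndufa4l2, with Thra1PV/+ library 1 lowest of its genotype, and overlap for Ndufa4, Cox4i1, Cox4i2, Cox7a2 and Cox7a1.

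The other tissue paralogs were at low levels. Cox4i2, the subunit 4 isoform known from lung, was at 2.61, 0.446, 1.76 and 1.82 CPM in Thra1PV/+ and 2.65, 5.02, 1.49 and 1.49 CPM in WT libraries. Cox7a1, known from heart and skeletal muscle, was at 0.606, 0.771, 1.0 and 0.946 CPM against 0.820, 2.17, 1.87 and 1.15 CPM. Cox6b2, known from testis, was at 3.36, 1.83, 1.33 and 2.59 CPM against 9.27, 7.89, 0.975 and 1.74 CPM. All 3 overlapped, with WT library 2 highest for Cox4i2 and Cox7a1 and WT libraries 1 and 2 high for Cox6b2. Their log2 fold changes were -0.68 (-2.06 to 0.69), -0.85 (-1.76 to 0.05) and -1.13 (-2.76 to 0.51), so the intervals hold both no difference and a fold of 2. Cox6a2, a heart and muscle form, was at 0 to 0.553 CPM. By TPM, Cox4i2 made up 0.118% to 0.876% of subunit 4, Cox7a1 0.856% to 3.18% of Cox7a1 plus Cox7a2, and Cox6a2 at most 0.188% of subunit 6a.

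The widely expressed subunits of complex IV were lower in Thra1PV/+ endometrium without reaching the call. Of 12 such genes, all 12 had a log2 fold change below 0, with a median of -0.27. At an unadjusted p under 0.05 by edgeR, 3 were lower (25.0%, against 4.72% of all tested genes). Cox6a1 was at 141, 144, 160 and 152 CPM in Thra1PV/+ and 228, 203, 169 and 199 CPM in WT libraries. The genotypes did not overlap, and the log2 fold change was -0.42 (SE 0.13, unadjusted p = 0.0106, adjusted p = 0.322 by edgeR). Cox7a2l, which takes part in joining complexes III and IV into supercomplexes, was at 311, 269, 346 and 374 CPM against 422, 538, 498 and 352 CPM. Its log2 fold change was -0.48 (SE 0.18, adjusted p = 0.432 by edgeR), and WT library 4 lay within the Thra1PV/+ range.

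Cox4i1, the widely expressed subunit 4, was at 323, 389, 445 and 477 CPM in Thra1PV/+ and 606, 438, 531 and 476 CPM in WT libraries. Cox5a, a structural subunit, was at 99.4, 155, 154 and 131 CPM against 136, 133, 188 and 194 CPM. Both overlapped, with Thra1PV/+ library 1 lowest, and their log2 fold changes were -0.33 (-0.72 to 0.07) and -0.27 (-0.73 to 0.18). Cox6b1 was at 156 to 192 CPM against 199 to 221 CPM, without overlap, with a log2 fold change of -0.23 (-0.50 to 0.04). Cox7a2, Cox7b and Cox8a overlapped, with log2 fold changes of -0.27, -0.14 and -0.27. Cox6c, named here after its values were seen, showed how far 1 genotype could spread. It was at 240, 178, 188 and 195 CPM in Thra1PV/+ libraries but at 473, 366, 195 and 239 CPM in WT libraries, so that WT libraries 1 and 2 carried its log2 fold change of -0.67 (SE 0.28, adjusted p = 0.491 by edgeR).

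Complex V differed least by median. Of its 17 genes, 15 had a log2 fold change below 0, with a median of -0.14. By edgeR, 0 had an unadjusted p under 0.05, against 4.72% lower and 5.05% higher of all tested genes. The smallest adjusted p by edgeR was 0.587. Atp5b, the catalytic beta subunit of the F1 head, was at 621, 684, 748 and 606 CPM in Thra1PV/+ and 505, 646, 824 and 789 CPM in WT libraries. Atp5a1, the alpha subunit, was at 549, 538, 583 and 548 CPM against 505, 576, 647 and 586 CPM. Both overlapped, with WT library 1 lowest of all libraries, and both log2 fold changes were -0.06 (-0.48 to 0.37 for Atp5b and -0.36 to 0.24 for Atp5a1).

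Atp5e, the epsilon subunit, and Atp5f1, subunit b of the peripheral stalk, had the lowest log2 fold changes of the complex. Atp5e was at 126, 122, 153 and 145 CPM in Thra1PV/+ and 181, 189, 142 and 151 CPM in WT libraries, and Atp5f1 at 183, 220, 229 and 183 CPM against 202, 236, 270 and 253 CPM. Both overlapped, with log2 fold changes of -0.28 (-0.61 to 0.05) and -0.24 (-0.57 to 0.09). Atp5s, a coupling factor-like gene, was at 8.86 ± 1.95 CPM against 8.37 ± 1.83 CPM (SD, n = 4 each).

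Atp5g1, Atp5g2 and Atp5g3 encode the same mature subunit c of the rotor ring. Their log2 fold changes were 0.04, -0.02 and -0.18, and all 3 overlapped. By TPM, Atp5g3 made up 60.5% to 68.5% of the 3 transcripts over the 8 libraries, Atp5g1 22.7% to 30.8% and Atp5g2 5.98% to 9.85%. The mean share of Atp5g3 was 62.9% ± 1.60 in Thra1PV/+ and 65.8% ± 2.66 in WT libraries (SD, n = 4 each), and the ranges overlapped.

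Per length, the subunit genes were among the abundant transcripts of the endometrium. Their median level was 252 TPM in the 76 genes left without the low paralogs and Atp5s, against 8.32 TPM over all tested genes. By complex the medians were 162 TPM for I, 128 for II, 349 for III, 471 for IV and 410 for V. Within complex I, Ndufa7 and Ndufa6 were highest, at 451 ± 76.7 and 420 ± 67.7 TPM (SD, n = 8 libraries), and Ndufb4 and Ndufa11 lowest, at 34.5 and 30.4 TPM. The first pair did not differ beyond their spread. Ndufa11 ranked 20th of 36 by CPM per kilobase of its longest gene model, so its low TPM depends on the transcript length used.

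By TPM, small subunits led complex III and stood first in complexes IV and V. Uqcrh stood at 833 ± 150 TPM and Uqcr11 at 496 ± 79.5 TPM, while Uqcrfs1 and Uqcrc2 were at 120 and 111 TPM. Cox6c and Cox8a stood at 1260 ± 519 and 1240 ± 159 TPM, while Cox4i2 and Cox6a2 were at 4.37 and 0.674 TPM. Atp5e and Atp5l stood at 857 ± 158 and 707 ± 69.2 TPM, while Atp5g2 and Atp5s were at 72.6 and 12.5 TPM. In complex II the order was Sdhd at 195 ± 25.8, Sdhc at 144 (128 to 160), Sdha at 112 ± 13.0 and Sdhb at 102 ± 14.1 TPM, of which the last pair did not differ beyond their spread. By CPM per kilobase of gene model the order changed, with Sdhc 4th of 4 in complex II, Cox4i1 first and Cox6c 4th in complex IV, and Atp5b ahead of Atp5l in complex V, while Uqcrh and Uqcr11 stayed highest in complex III. Within complex I and within complexes III to V, transcript levels thus differed several-fold per length.

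**Figure D5:**
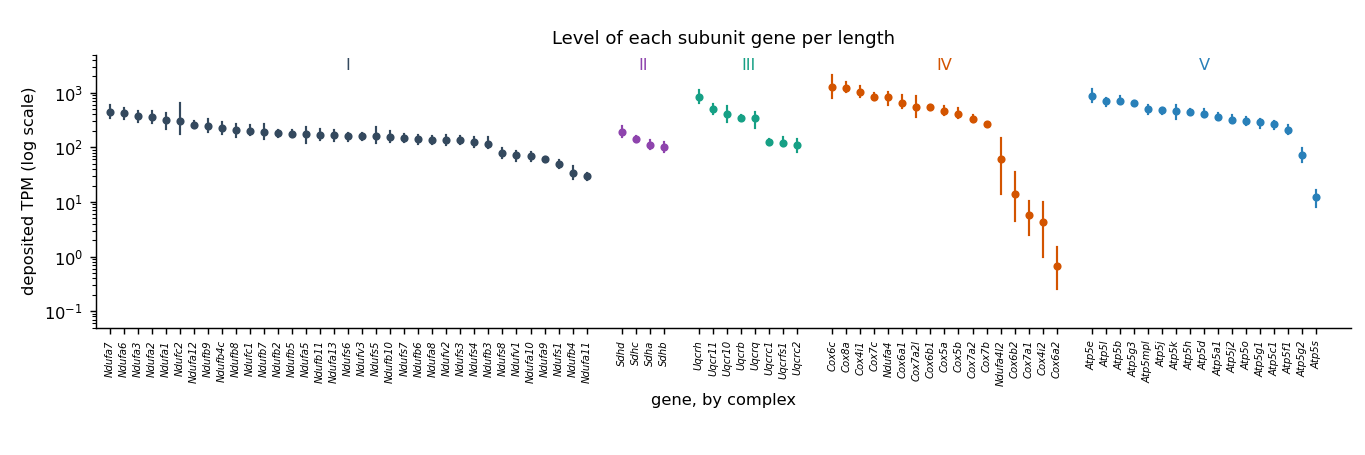
Deposited TPM on a log scale for 81 of the 82 tested genes, ordered by mean within complexes I to V, with points for the mean of 8 libraries and lines from the lowest library above 0 to the highest. The median level is 252 TPM without the low paralogs and Atp5s, and the paralogs Cox6b2, Cox7a1, Cox4i2 and Cox6a2 with Atp5s lie lowest.

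Across 78 subunit genes with at least 5 CPM, log2 fold change and transcript length had a Spearman correlation of 0.35, described here without a p-value because genes of the same libraries are not independent. Across 18147 tested genes it was 0.04. In 3 length classes of equal size, from shortest to longest, the medians were -0.27, -0.20 and -0.20, beside -0.14, -0.13 and -0.05 for all tested genes in the same length ranges. The median correlation between 2 genes of a complex over the libraries, after removing each genotype's mean, was 0.46 in complex I, 0.40 in III, 0.42 in IV and 0.20 in V. In complex II, with 4 genes, it was -0.18. Over all 78 genes, whatever their complex, the median correlation was 0.27. These correlations rest on 8 libraries that share depth and tissue makeup.

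Among 46 tested assembly factors 36 had a log2 fold change below 0 (78.3%, against 56.8% of all tested genes), with a median of -0.14, 4 lower at an unadjusted p under 0.05 and 0 higher. Their summed level was 1000 to 1050 CPM in Thra1PV/+ and 1130 to 1220 CPM in WT libraries, without overlap. Cox16 and Surf1, both needed to build complex IV, had log2 fold changes of -0.40 and -0.36. Of 79 genes of the mitochondrial ribosome, which translates the mtDNA-encoded subunits, 71 were below 0 (89.9%, against 56.8%), with a median of -0.14, 4 lower at an unadjusted p under 0.05 and 0 higher. For Mrpl54 and Mrpl17, the log2 fold changes were -0.36 and -0.32. The lower shares at an unadjusted p under 0.05 were 8.70% and 5.06% in these 2 lists, beside 4.72% of all tested genes. Both medians, -0.14, equal that of all tested genes of 371 to 704 bases, and the 2 lists were not matched for transcript length.

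The 17 genes of the tricarboxylic acid cycle had a median of -0.12, with Sucla2, a subunit of succinyl-CoA synthetase, at -0.27. At an unadjusted p under 0.05 by edgeR, 1 of them was lower (5.88%, against 4.72% of all tested genes). The 16 electron carrier genes had a median of -0.15 and the 16 genes of mitochondrial mass one of -0.09. The 6 tested genes of uncoupling and nucleotide exchange had one of -0.08. Each of these lists had 0 genes at an unadjusted p under 0.05 by edgeR, against 4.72% lower and 5.05% higher of all tested genes. Of 4 further subunits that the symbol rule missed, Usmg5, a membrane subunit of complex V, had a log2 fold change of -0.30. In all of these lists 0 genes were called, by edgeR or by DESeq2.

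Among 16 tested regulators of mitochondrial biogenesis the median log2 fold change was 0.01, but 2 members stood out. Ppargc1a, the coactivator that drives mitochondrial biogenesis, was at 4.83, 2.90, 4.05 and 5.50 CPM in Thra1PV/+ and 11.2, 12.4, 13.6 and 6.26 CPM in WT libraries. The genotypes did not overlap, and WT library 4 was closest to the Thra1PV/+ libraries. Its log2 fold change was -1.33 (SE 0.32, unadjusted p = 0.00266, adjusted p = 0.170 by edgeR), past the fold threshold but not the adjusted one. Esrrg, an orphan nuclear receptor that works with such coactivators, was at 4.61, 4.04, 3.33 and 3.15 CPM against 0.477, 1.07, 0.119 and 0.628 CPM. It was higher in every Thra1PV/+ library, with a log2 fold change of 2.72 (SE 0.58, adjusted p = 0.120 by edgeR). DESeq2 called both genes.

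The 10 genes of the hypoxia response summed to 758, 3100, 2970 and 1610 CPM in Thra1PV/+ and 1100, 725, 2710 and 2760 CPM in WT libraries. The genotypes overlapped, with Thra1PV/+ library 1 and WT libraries 1 and 2 low. The median log2 fold change was 0.32. Car9, a carbonic anhydrase induced by hypoxia, was at 8.72, 63.6, 69.8 and 32.3 CPM against 5.34, 1.17, 10.9 and 20.5 CPM. It overlapped, and its log2 fold change of 2.20 had an adjusted p of 0.463 by edgeR.

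Of 11 genes of the thyroid hormone response, 9 were below 0, with a median of -0.23. The highest log2 fold change was 0.69, for Hr. At an unadjusted p under 0.05 by edgeR, 4 were lower (36.4%, against 4.72% of all tested genes), and 0 were called by edgeR. DESeq2 called 3, Dio1, Dio3 and Klf9. Klf9, a direct target of thyroid hormone receptors, was at 16.1, 3.59, 5.62 and 4.22 CPM in Thra1PV/+ and 54.1, 38.5, 10.7 and 17.1 CPM in WT libraries. It overlapped through Thra1PV/+ library 1, with a log2 fold change of -2.02 (SE 0.65, adjusted p = 0.351 by edgeR). Dio3, the deiodinase that inactivates thyroid hormone, was at 0.257, 0.284, 0.409 and 0.438 CPM against 2.16, 0.506, 2.84 and 3.6 CPM, without overlap, and its log2 fold change was -2.70 (SE 0.59, adjusted p = 0.127 by edgeR). The log2 fold change of Thra was 0.04 (-0.85 to 0.93).

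Promoters of subunit genes are known for sites of the factors NRF1, GABP and YY1. Windows from 250 bases before to 50 after the start (RefSeq, GRCm38.p6) were matched by symbol for 66 of 88 genes, 64 of them tested, giving 69 windows. On either strand, the NRF1 core TGCGCA was in 26.1% of these windows and in 7.76% of all 32851 windows. The GABP or ETS core CCGGAAG was in 23.2% against 8.86%, and the YY1 core AAGATGG in 14.5% against 6.34%. The thyroid hormone receptor half-site AGGTCA was in 21.7% against 16.3%, and the hypoxia response core ACGTG in 23.2% against 19.6%. Of the 12 genes whose values did not overlap in the lower direction, 3 had the NRF1 core, 2 the GABP core, 2 the YY1 core, 1 the thyroid half-site and 5 the hypoxia response core. Among the other 52 matched genes these were in 14, 14, 8, 14 and 10. A match of such short letters describes the sequence and is not a site. The upstream stretches given here are those of 3 of those 12 genes, chosen after their values were seen because they carry the NRF1 core or the thyroid half-site, which is in capitals. They are 60 bases each, written on the gene's own strand, and lie upstream of both the RefSeq start and the GENCODE M21 gene.
Cox6a1, chr5:115349044-115349103, minus strand, NRF1 core: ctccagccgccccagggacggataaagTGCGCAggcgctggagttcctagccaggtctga
Sdha, chr13:74350281-74350340, minus strand, NRF1 core: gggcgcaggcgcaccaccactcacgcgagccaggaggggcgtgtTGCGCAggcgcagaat
Cox5b, chr1:36691389-36691448, plus strand, NRF1 core: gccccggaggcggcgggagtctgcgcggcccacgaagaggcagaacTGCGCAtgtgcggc
Cox5b, chr1:36691315-36691374, plus strand, thyroid half-site: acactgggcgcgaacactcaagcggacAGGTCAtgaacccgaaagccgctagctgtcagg
The Cox5b gene, which encodes a zinc-binding subunit of complex IV, was at 148, 145, 154 and 160 CPM in Thra1PV/+ and 179, 172, 167 and 178 CPM in WT libraries, with a log2 fold change of -0.20 (-0.43 to 0.04).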

How the data were processed

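RNA-seq of laser-captured endometrium from 4 Thra1PV/+ and 4 WT mice was re-analysed. Libraries were stranded, from mRNA and paired-end. Reads were trimmed with Trimmomatic and quantified with Salmon for mm10, and the submitters' notes also name DESeq2. The Salmon version and annotation release are not given in the sources used here. The authors deposited estimated counts per gene, not normalized, and TPM values whose sorted values differed by at most 0.291 between libraries, as after quantile normalization. In the tables, 1 column of values that matched no sample was not used.

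Estimated counts were rounded, filtered with filterByExpr, normalized by TMM and tested by edgeR 4.0.16 (quasi-likelihood) in R 4.3.3, with genotype as the only term and Benjamini-Hochberg adjustment over 18174 genes. The steps were tested on simulated data with changes far larger than those of nearly all subunit genes. Whether differences as small as theirs are recovered was not tested. CPM are after TMM. Intervals are 95%. Alternatives used DESeq2 1.42.0, limma 3.58.1, other normalizations and filters, and each library left out. Labels do not say more of how the 4 samples of a genotype relate, so p-values measure the spread between these samples.

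The genes, lists and motifs were chosen with earlier results of these data known. Named genes were every gene called, the 2 highest and 2 lowest log2 fold changes of each complex (all of complex II), reference subunits and paralogs, the 2 highest and 2 lowest mean TPM of each complex, and, of each related list, up to 2 genes with the smallest unadjusted p under 0.05, with Thra and Klf9. Values of 1 reference subunit of complex I are not reported here, and it is left out of the plots of single genes. Gene positions are from GENCODE M21 (GRCm38), which has the same identifier version for 74 of the 88 genes.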

Additional observations from a re-analysis of the deposited data

Results flagged for a closer look

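In 3 of 90 groups of 4 libraries (named genes and complex sums, each genotype), 1 library lay far from the other 3 by Dixon's ratio at its 95% critical value, where chance gives about 4.5. Ndufa11 was at 56.4 CPM in WT library 3 and at 67.0 to 67.8 CPM in the remaining WT ones. Sdhc was at 115 CPM in Thra1PV/+ library 1 against 128 to 129 CPM. Ndufv1 was at 72.2 CPM in Thra1PV/+ library 2 against 78.1 to 79.2 CPM.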

How the results depend on the processing

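The median log2 fold change of the subunit genes stayed below 0 under every alternative run, and the sums of each complex stayed lower in Thra1PV/+ endometrium. The count of genes lower at an unadjusted p under 0.05, which was 14 (17.1%, against 4.72% of all tested genes), was 8 with upper quartile normalization (9.76%, against 3.79%), 2 with library size alone (2.44%, against 2.87%), 8 with a filter of at least 1 count in any library (9.76%, against 3.69%), and 4 with limma on log2 TPM plus 1 and also plus 0.1 (4.88%, against 3.74% and 4.05%). The cause was not tested. With both TPM fits the median of complex II was -0.10, and by summed TPM its ratio was 0.923. Without Thra1PV/+ library 1 and WT library 1 together, an alternative chosen after seeing the data, that count was 3 (3.66%, against 5.17%) and the median was -0.11 over all complexes, -0.13 for complex I, -0.07 for III and -0.14 for IV, with 6 libraries in place of 8. Leaving out each library in turn, the count of genes called ranged from 0 to 1, the count of lower genes from 3 to 19, and the medians from -0.29 to -0.13 for complex I, -0.25 to -0.12 for complex II and -0.39 to -0.18 for complex IV.

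Sign changes were seen only in genes whose difference was far from the threshold. Atp5g2 was at 0.01 with DESeq2, RLE size factors and upper quartile, 0.05 with library size alone, 0.00 with the filter of 1 count, 0.11 with voom, 0.06 with both TPM fits and 0.26 without the 2 libraries. With library size alone Ndufa11, Uqcrc2 and Atp5a1 were at 0.02 and Atp5b at 0.03. Uqcrc2 was at 0.03 with voom and 0.07 with both TPM fits, Atp5g1 at -0.01 and Atp5s at -0.14 with voom, and, without the 2 libraries, Ndufa4 at 0.14 and Atp5s at -0.10. With 1 library left out, the ranges were -0.10 to 0.01 for Ndufa11, -0.01 to 0.12 for Ndufa10, -0.13 to 0.12 for Uqcrc2, -0.23 to 0.10 for Ndufa4, -0.02 to 0.13 for Atp5g1, -0.09 to 0.02 for Atp5a1, -0.14 to 0.06 for Atp5b and -0.15 to 0.21 for Atp5g2.

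The labels give both genotypes replicate numbers 1 to 4. The deviations of same-numbered libraries from their genotype means had correlations of 0.269, -0.436, 0.340 and -0.159. These cannot show whether same-numbered samples were paired, and the labels do not say. With the replicate block, 0 genes were called, 6 were lower at an unadjusted p under 0.05 (7.32%, against 3.69%), and Ndufa4l2 had a log2 fold change of 2.58 with an adjusted p of 0.107 by edgeR. Its adjusted p ranged from 2.63e-07 (DESeq2) to 0.136 (edgeR without WT library 4) over all alternatives. With 4 mice a genotype, the confidence intervals of 67 of 82 genes included 0.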
